A study of Mus musculus with 16 samples.

Results

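Alb, Afp, Afm and Gc belong to the albumin gene family, and the accessible chromatin around these 4 genes is described here in 8 mouse tissues. The 4 members were taken by gene name and not by their peaks. For each of them, every peak whose summit lay in the gene body or within 200 kb of it was taken from 16 lists of ATAC-seq peaks. ATAC-seq uses the transposase Tn5 to place adapters in open DNA, so that peaks mark accessible chromatin. The windows of Alb, Afp and Afm overlap and were counted once, as the cluster window, and the Gc window stands apart. Together the windows held 146 of the 239804 regions listed in fed liver and 178 of the 217821 regions listed in fasting liver, and between 36 and 105 regions in each of the other 14 libraries.

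The mice were male C57BL/6 animals, wild type, and either fed or fasted for a day. The tissues, taken in both states, were liver, kidney, lung, heart, spleen, muscle and the brown adipose and white adipose depots. Frozen tissue of several mice was pooled, each tissue gave 1 library in each state without a replicate, and the tissues of a state shared their mice. A difference between fed and fasting within a tissue is therefore a difference between 2 libraries, and the tests below compare the states across tissues.

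Albumin, from Alb, is the main carrier protein of blood plasma. Alpha-fetoprotein, from Afp, is its fetal counterpart and is largely silenced in the liver after birth. Afamin, from Afm, binds vitamin E, and the vitamin D binding protein, from Gc, carries vitamin D metabolites and binds actin. The genes arose by duplication, lie on the same chromosome and are expressed mainly by hepatocytes. Their promoters are textbook targets of the hepatocyte factors such as C/EBP and FOXA, which together with HNF4 maintain liver gene expression.

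In GENCODE vM21 on GRCm38, Gc (ENSMUSG00000035540.12) occupies chr5:89417522-89457898 on the minus strand. Alb (ENSMUSG00000029368.10) lies at chr5:90460897-90476602, Afp (ENSMUSG00000054932.6) at chr5:90490737-90508907 and Afm (ENSMUSG00000029369.17) at chr5:90518932-90553543, all on the plus strand. The 150 bases before the RefSeq starts of Alb and Afp, taken from the GRCm38 reference, are shown because these promoters held matches to hepatocyte factor sites. Capitals mark the matches to the C/EBP and FOXA sites given after them.
Alb, chr5:90460720-90460869: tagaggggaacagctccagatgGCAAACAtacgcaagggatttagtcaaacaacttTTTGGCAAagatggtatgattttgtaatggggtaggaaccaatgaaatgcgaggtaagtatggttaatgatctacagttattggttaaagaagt
Afp, chr5:90490564-90490713: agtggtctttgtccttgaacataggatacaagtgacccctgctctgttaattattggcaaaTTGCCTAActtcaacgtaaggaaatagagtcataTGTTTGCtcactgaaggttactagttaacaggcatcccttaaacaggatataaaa

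Motifs were searched in the 250 bases before the RefSeq start of each member and, as a background, of 32851 RefSeq promoters. The C/EBP site, TTGCNNAA, and the FOXA site, TGTTTNC, were searched without mismatches on both strands, and each was found in Alb and Afp and in neither Afm nor Gc, against 9.56% and 17.8% of all promoters. In Alb the C/EBP match began 94 bases and the FOXA match 128 bases before the start, both on the minus strand, and in Afp they began 89 and 55 bases before it on the plus strand, without overlap. The HNF4 repeat, AGGTCANAGGTCA with up to 2 mismatches, was found in 0 of the 4 promoters and in 3.24% of all promoters. These are matches of letters, and binding was not measured.

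Peaks were compared between libraries by their percentile, the rank of a region by p among all regions of its own list, with 0 where no peak was listed and 100 for the strongest region. Libraries differed in depth: the genome background that the peak caller used was 2.80 tags in fed liver, 2.82 in fasting liver and between 3.20 and 12.8 tags elsewhere. Sets counted below hold regions with q under 0.01, of which a library had between 131688 and 225899. Of 8 lists of tissue marker genes, 7 had their highest mean promoter percentile in their own tissue. The exception was the white adipose list, at 88.7 and 91.9 in its own tissue (fed and fasting) and at 91.5 and 94.0 in brown adipose. The liver list stood at 93.1 and 93.7 in liver and at no more than 57.1 elsewhere, in fed white adipose. Tissues are mixtures, so that fewer cells of a type and less accessibility per cell cannot be told apart.

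All 4 members had a promoter peak in liver in both states, defined as a peak within 3 kb of any annotated start. For Afp that peak lay in an intron, 10141 bases after the first start in fed liver. The Afp values below are those of intronic regions, as no library had a peak over its first start. Alb and Gc had their 2 highest values in the 2 liver libraries, which held for 7.01% of 19718 protein-coding promoters with a peak in any library. Afp was higher in spleen and Afm was higher in kidney than in liver. Among the 18073 protein-coding promoters with a liver peak, the median of the mean liver percentile was 92.3. Gc stood at 93.6, Afp at 88.0, Alb at 86.1 and Afm at 85.1, so that 1 member lay above the median and 3 below it.

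The Alb promoter was listed in 3 of 16 libraries. Its percentile was 85.5 in fed liver, 86.7 in fasting liver and 49.6 in fasting kidney, and no peak was listed in fed kidney or in either library of the 6 remaining tissues. Both liver libraries thus lay above every other library, with a gap to fasting kidney. The summit held 46 tags in fed liver (exact Poisson 95% interval 33.7 to 61.4) and 91 in fasting liver (73.3 to 112), against 27 in fasting kidney. Such intervals cover counting error only. The caller weighs a peak against its surroundings, and around the Alb start it expected 3.69 times the genome background in fed liver and 6.65 times in fasting liver, and no more than the background in fasting kidney. Ranked by summit tags in place of p, the same promoter stood at 93.2 and 93.7 in liver.

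The Gc promoter was listed in 9 libraries. It stood at 93.2 in fed and 94.0 in fasting liver, at 60.4 and 74.8 in kidney, at 57.5 and 69.3 in white adipose, at 47.7 and 40.2 in brown adipose and at 50.8 in fed lung. It was not listed in fasting lung, muscle, spleen or heart. The liver values lay above all others, and kidney and white adipose came next with overlapping values. The peaks behind these values differed in place. The region over the start itself, chr5:89457633-89458062, was at 92.7 and 94.0 in liver, 60.4 and 46.0 in kidney and 57.5 in fed white adipose. A region 1.3 kb before the start stood at 93.2 and 91.6 in liver and at 49.5 and 74.8 in kidney and in no other tissue. The brown adipose and lung values came from a region 2.1 kb inside the gene, which was at 78.6 and 88.7 in liver. The fasting white adipose value came from chr5:89459602-89459953, further before the start, where liver was not highest. This region stood at 50.9 and 69.3 in white adipose, 68.5 in fasting kidney, 60.1 in fasting liver and 12.3 in fed brown adipose. It was not listed in fed liver.

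The Afm promoter was listed in 5 libraries, with kidney slightly above liver. It stood at 87.6 in fed liver, 82.6 in fasting liver, 88.8 in fed kidney, 90.8 in fasting kidney and 44.4 in fasting spleen, with no peak in the other 11 libraries. In tags, kidney exceeded liver: the summit held 35 and 45 tags in fed and fasting liver and 137 and 135 in kidney. Divided by the background of each library, with 1 added to both, the signal was 9.47 (6.68 to 13.1) and 12.04 (8.85 to 16.02) in liver and 24.3 (20.5 to 28.7) and 24.1 (20.3 to 28.5) in kidney. The counting intervals of the tissues did not overlap, although no replicate library was there to give the spread between pools.

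Afp had peaks near an annotated start in 14 libraries, but at none of them over its first start. The peak nearest to that start was 1.85 kb into the gene, in fed lung. The values came from intronic regions. The region chr5:90500821-90501045, close to the start of a transcript with a retained intron, was listed in 14 libraries, at 89.6 and 86.4 in liver, 96.8 and 93.8 in spleen, 82.2 and 61.0 in lung and 67.2 and 73.9 in kidney, and it was absent from both heart libraries. The second region, chr5:90492224-90492799, was strongest in spleen, at 98.7 and 98.2, with 137 and 114 tags. It was at 76.1 and 26.0 in liver with 18 and 12 tags, at 63.0 and 72.8 in kidney, 63.7 in fed lung and 39.0 in fed muscle. Spleen was thus the tissue with the most accessible Afp intron, and with protein-coding starts alone the liver promoter value of Afp became 76.1 and 68.0. The 150 bases around the spleen summit are given next as the sequence of that element, with a C/EBP match in capitals.
Afp intron, chr5:90492539-90492688: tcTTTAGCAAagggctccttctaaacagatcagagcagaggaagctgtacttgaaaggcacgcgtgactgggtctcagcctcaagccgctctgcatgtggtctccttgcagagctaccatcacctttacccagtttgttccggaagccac

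**Figure D1:**
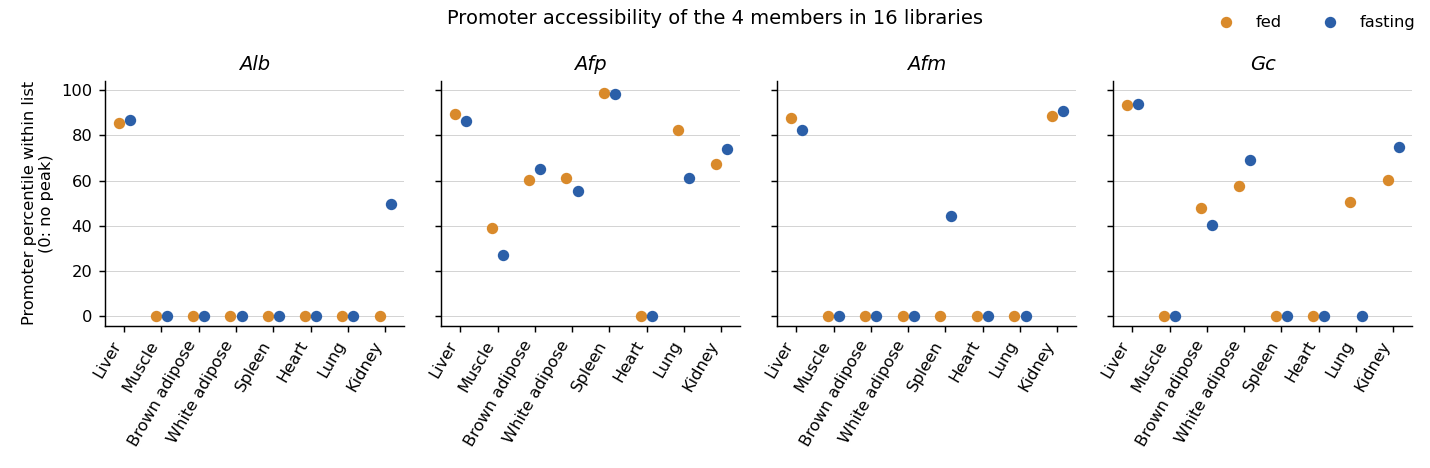
Promoter percentile within each peak list (vertical axis, 0 to 100, where 0 means that no peak was listed) of Alb, Afp, Afm and Gc in the 8 tissues, with 1 point per library, orange for fed and blue for fasting and no error bar because each group has 1 library. Alb and Gc are highest in liver, Afp in spleen at 98.7 and 98.2, and Afm in kidney at 88.8 and 90.8.

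Fasting was compared with feeding by the mean difference over the 8 tissues, with an exact sign-flip permutation test (two-sided) whose smallest possible p is 0.0078125 when no tissue is tied. The Alb promoter differed by 6.34 ± 17.5 points (SD, n = 8 tissues), higher in fasting in liver and kidney and tied at 0 in 6 tissues, so that the exact p of 0.5 is the smallest the data allow. The Gc promoter differed by -3.92 ± 20.2 points (exact permutation p = 0.875), higher in fasting in 3 tissues and lower in 2. With 3 tissues tied, the smallest exact permutation p possible for Gc was 0.0625. For Afp the difference was -3.94 ± 9.06 points (exact permutation p = 0.297), lower in fasting in 5 of 8 tissues. For Afm it was 5.17 ± 15.96 points (exact permutation p = 0.75), higher in 2 and lower in 1. With 5 tissues tied, the smallest exact permutation p possible for Afm was 0.25. The tests of Alb, Gc and Afm thus could not fall under 0.05 and say nothing on whether fasting had an effect. The size of 2 of the differences depended on the definition of a promoter. With protein-coding starts alone the Afp difference was -12.7 points (exact permutation p = 0.312). With a window of 1000 bp the Gc difference was -8.82 points (exact permutation p = 0.5). The Benjamini-Hochberg adjusted value over all 19718 promoters was 1 for each member. Over all promoters, 2.43% were higher and 2.26% lower in fasting at an unadjusted exact p under 0.05, and 0 at an adjusted one, where the smallest value was 0.932. P-values here speak of these pools only.

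Within liver, 0 of the 4 promoters moved by 10 points or more, where 9.64% of the promoters with a liver peak rose and 13.5% fell by that much. The changes from fed to fasting were 1.19 points for Alb, 0.82 for Gc, -3.18 for Afp and -5.02 for Afm. Tag numbers at the Alb and Gc promoters were higher in fasting liver, from 46 to 91 and, at the Gc start, from 52 to 116, whereas at Afm they were 35 and 45. Signal was higher in fasting liver in general: over 38926 regions in both liver sets with a mean percentile of at least 80, its median ratio of fasting to fed was 1.72, and the ratio was 1.95 at the Alb promoter and 1.27 at the Afm promoter. No test is possible on 1 library per state, and the part of this library-wide shift in the tag numbers was not tested.

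The Alb gene body differed from the other members in liver. It held 11 regions of q under 0.01 in fed and 16 in fasting liver, over the 15706 bp of the gene, and no more than 3 in any other library. The expected tags of these regions, which the caller raises where the surrounding kilobases are rich in tags, had a median of 7.62 times the genome background in fed and 15.7 times in fasting liver. That placed the median region of the gene at percentile 99.9 of all fed liver regions and 99.9 of all fasting ones by this measure. In the other libraries with a region in Alb the median was at the background. The regions listed inside Alb in liver were thus not limited to its start, although tags between the regions were not measured.

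Gc held 13 regions in each liver library, with expected tags of 1.99 and 2.17 times the background, and 6 and 10 regions in fed and fasting kidney at 1.33 and 1.34 times. Afm held 8 and 5 regions in liver at 1.69 and 1.66 times the background and 1 region in each kidney library at 2.20 and 1.84 times. Afp held 3 regions in fed liver, at the background, 4 in fasting liver at 1.13 times, and 5 and 8 in spleen at 1.78 and 1.31 times. The local tag level under the regions inside the gene was thus largest for Alb in liver, with Gc and Afm far lower and Afp at or close to the background. Tags over the whole gene were not measured.

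**Figure D2:**
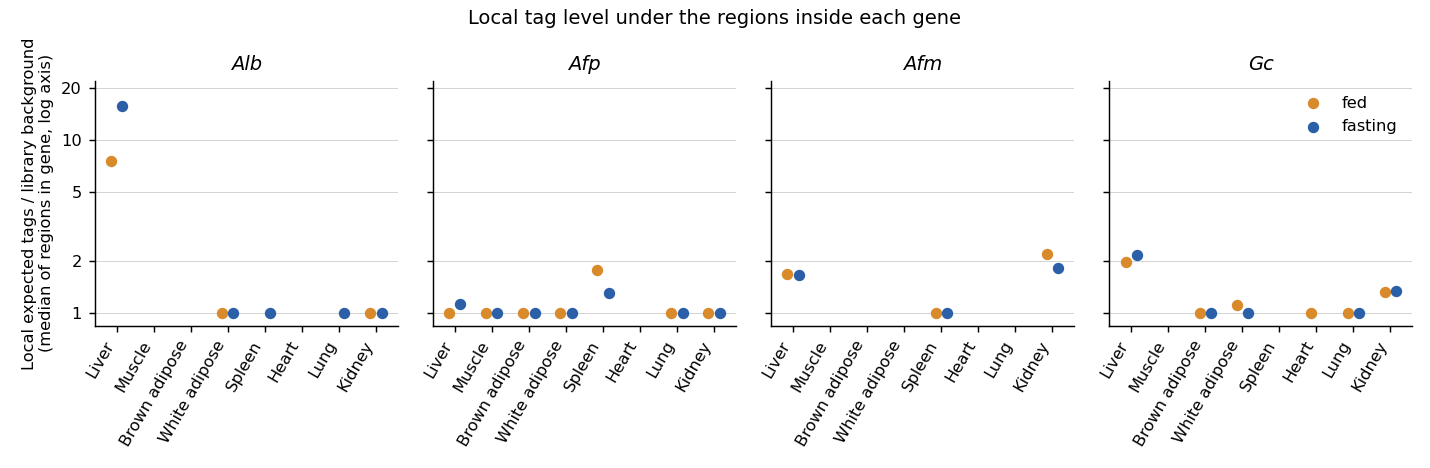
Local tag level inside the 4 genes by tissue (vertical axis, log scale), as the expected tags of the median region of q under 0.01 over the genome background of the same library, with 1 point per library, orange for fed and blue for fasting and no point where the gene held no region. Alb in liver reaches 7.62 in fed and 15.7 in fasting mice, and the values of the other members stay at or below 2.20.

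Some regions inside Alb and Gc were strong in tissues other than liver. They were picked after their values were seen and are given as a description. In Alb, a region 6.6 kb after the start, chr5:90467279-90467610, stood at 87.1 in fed and 91.4 in fasting kidney, with 96 and 114 tags, at 69.5 in fasting liver and 64.7 in fasting white adipose, and was not listed in fed liver. A region 13.2 kb after the start, chr5:90473925-90474831, stood at 94.6 and 88.1 in liver and at 85.5 and 76.8 in white adipose, and it was not listed in kidney. In Gc, an intronic region 13.3 kb after the start, chr5:89444294-89444868, stood at 76.5 and 79.5 in white adipose, 68.7 and 77.7 in lung, 53.5 and 42.8 in kidney and 29.8 and 45.8 in brown adipose, and was not listed in liver. Another, 17.2 kb after the start, chr5:89440298-89440809, stood at 80.5 and 80.6 in kidney and at 38.1 in fed liver. Kidney, white adipose and lung thus had peaks in introns of these genes, some of which were weak or unlisted in liver. Transcripts of these tissues were not analysed here.

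The cluster window held more regions in liver than in any other tissue. It had 106 regions of q under 0.01 in fed and 92 in fasting liver, then 57 and 72 in spleen, 59 and 55 in kidney, 55 and 43 in brown adipose, 46 and 31 in white adipose, 36 and 34 in muscle, 34 and 36 in lung and 22 and 19 in heart. Taken gene by gene and set among the windows of 21755 protein-coding genes in the same library, the density of liver regions stood at percentiles 97.9 and 91.7 (fed and fasting) for Alb, 97.4 and 90.4 for Afp and 95.7 and 87.8 for Afm. In kidney the same windows stood between 51.1 and 63.8. Merged over libraries, the window had 231 regions, of which 113 were in a liver set. Of those 113, 41 (36.3%) had both liver values above the other 14, against 14.3% of all such regions of the genome. Of 63 regions present in both liver sets, 21 (33.3%) had no peak of another tissue, against 11.3% in the genome.

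The 60 kb before Alb, a stretch chosen after its values were seen, held 18 and 17 of these regions in fed and fasting liver. Spleen had 2 and 8 there, kidney 5 and 6, white adipose 3 and 3, brown adipose 2 and 3, lung 1 and 1, heart 1 and 0 and muscle 0 and 0. Of the 15 merged liver regions of the stretch, 12 had both liver values highest and 7 were listed in no other tissue. Over the genome, 14.3% of liver regions had both liver values highest. The genome share without a peak of another tissue, 11.3%, was counted only for regions in both liver sets. The strongest was 55.5 kb before the start, chr5:90405189-90405653, at 99.8 in fed and 98.1 in fasting liver. It was also at 86.9 and 89.0 in kidney and 85.2 and 86.6 in white adipose, and was listed in 13 libraries in all, so it was strongest in liver without being limited to it.

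The regions given next lay nearer to the start and were listed in fewer tissues, but not every region of the stretch is given. Of its 15 merged liver regions, 7 were listed in liver alone. Regions 35.6 kb and 29.6 kb before the start stood at 94.2 and 87.3 and at 95.7 and 83.8 in fed and fasting liver, and no other tissue listed them. A region 21.6 kb before it stood at 94.2 and 96.3 in liver and 71.3 and 63.9 in kidney alone, and the next, at 13.1 kb, stood at 89.97 and 93.6 in liver, 74.6 and 72.1 in kidney and 43.2 and 43.6 in white adipose. The region 10.8 kb before the start, chr5:90449868-90450350, was listed in liver alone, at 91.1 in fed and 97.0 in fasting mice, with 37 tags (26.1 to 51.0) in fed and 119 (98.6 to 142) in fasting liver. Its signal ratio of fasting to fed, 3.14, was the largest of the 29 cluster regions of mean percentile 80 or more and lay at percentile 97.8 of all such liver regions. At the other end, the region 29.6 kb before the start had 44 and 36 tags and a ratio of 0.818, at percentile 2.56.

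Sequences are given for the strongest region before Alb and for the strongest one that no other tissue listed, as examples of a shared and a liver-limited element. Whether their sequences account for the difference between tissues was not tested. The first is printed at a shorter length than the second. The first showed no match to the 3 motifs in the printed bases, nor in the 300 bp searched around its summit. In the second, capitals mark a C/EBP match 140 bases before the summit and a FOXA match 93 bases after it.
55.5 kb before Alb, chr5:90405321-90405470: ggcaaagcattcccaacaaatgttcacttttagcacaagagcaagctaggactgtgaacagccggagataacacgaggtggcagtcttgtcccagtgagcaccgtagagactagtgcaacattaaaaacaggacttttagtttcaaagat
10.8 kb before Alb, chr5:90449961-90450260: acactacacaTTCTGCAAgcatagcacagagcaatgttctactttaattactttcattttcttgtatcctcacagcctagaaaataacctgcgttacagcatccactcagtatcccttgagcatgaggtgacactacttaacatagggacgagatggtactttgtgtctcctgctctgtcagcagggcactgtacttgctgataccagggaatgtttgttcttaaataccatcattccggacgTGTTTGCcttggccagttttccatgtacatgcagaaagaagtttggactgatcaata

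**Figure D3:**
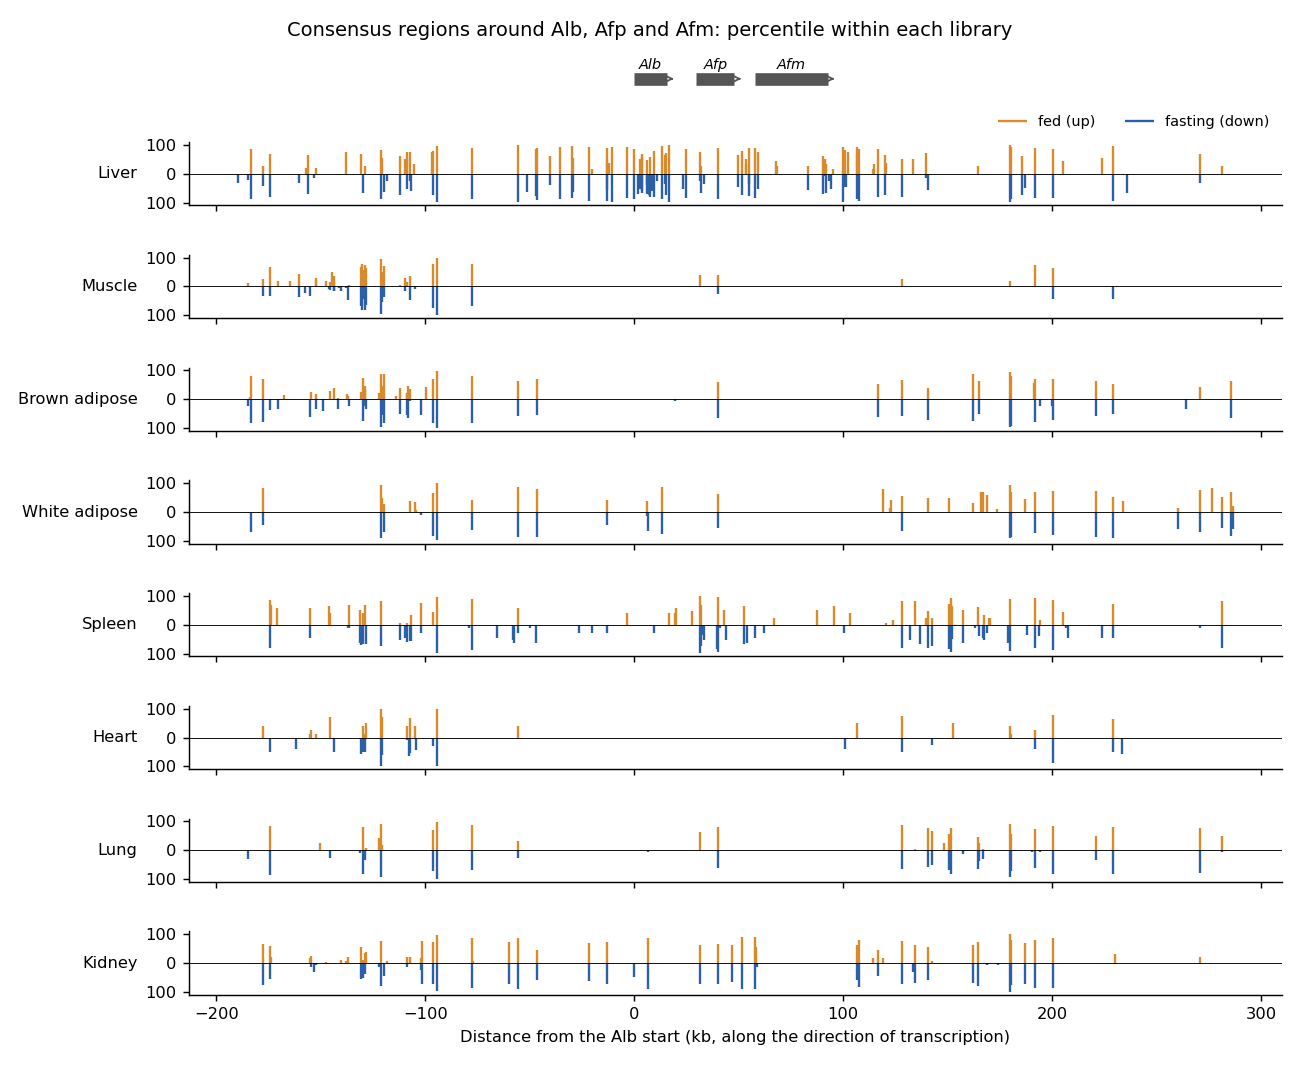
Merged regions of the cluster window by the distance of their summit from the Alb start in kb (horizontal axis), with 1 row per tissue and the percentile within each list drawn upwards in orange for fed and downwards in blue for fasting, and with the genes as grey bars. Liver holds 18 and 17 regions in the 60 kb before Alb, where the other tissues hold between 0 and 8.

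Beyond Alb, a strong region began at the 3′ end of the gene, chr5:90476585-90478145. It stood at 99.0 in fed and 97.1 in fasting liver with 172 and 264 tags, and was otherwise listed in fed spleen alone, at 40.5. A region 24.9 kb after the Alb start, between Alb and Afp, stood at 84.5 and 85.2 with 26 and 52 tags in liver and in no other tissue. The strongest region listed in liver alone, at 93.2 and 97.9, lay 99.9 kb after the Alb start in an intron of Gm42109 and at the promoter of 5830473C10Rik, beyond Afm. Other neighbours were listed in most libraries: the promoter of Ankrd17, an ankyrin repeat gene, had a peak in 16 libraries and stood at 97.1 and 96.7 in liver, and that of Rassf6 had a peak in 14, at 99.2 and 99.6 in liver and 99.7 and 99.6 in kidney. Alb and Afm were listed in 3 and 5 libraries, and Afp in 14.

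Of the 113 liver regions of the cluster window, 33 (29.2%) rose and 40 (35.4%) fell by 10 points or more from fed to fasting, with regions unlisted in a state counted as 0. Over the genome, 31.5% rose and 45.2% fell. The median difference in the window was -1.59 points. The largest rise was in an Alb intron 7.1 kb after the start, from no listed peak to 72.5 with 100 tags, and the largest fall was 101.2 kb after it, from 81.4 to 6.27 with 34 and 20 tags. The shares in the cluster window were close to or below those of the genome. Across tissues, an exact sign-flip permutation p under 0.05 needs a difference in at least 6 tissues, which 22 of the 128 cluster regions in at least 2 sets had. Of these 22, 0 passed unadjusted, where 7.98% of 69550 such regions of the genome did. Over all 379535 regions in at least 2 sets, 0.943% were higher and 0.519% lower in fasting.

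The Gc window showed another balance of tissues. Fed liver held 35 regions there and fasting liver 59, although over the genome the fasting liver set was the smaller, with 166725 regions against 201093. Kidney held 46 and 50, so liver and kidney overlapped, while the other 12 libraries held between 2 and 23. Its density stood at percentile 29.3 and 62.7 among gene windows in liver and at 48.2 and 51.5 in kidney. Of 129 merged regions, 67 were in a liver set, and 26 of them (38.8%) had both liver values highest, against 14.3% in the genome. Of 26 regions in both liver sets, 7 (26.9%) had no peak of another tissue, against 11.3% in the genome. The strongest of these 7 lay 34.9 kb before the Gc start, at 86.6 and 86.8, followed by a region 82.6 kb before it in an intron of Npffr2, at 78.0 and 88.5, and an intronic region 35.2 kb after the Gc start, at 85.9 and 68.0.

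The strongest liver region of the Gc window was chr5:89277007-89278076, 180.1 kb from the Gc start in the direction of transcription. Gc is transcribed towards lower coordinates, so the region lies beyond its 3′ end, between Gc and Slc4a4, and not on the promoter side. Its percentile in fed and fasting mice was 99.1 and 99.5 in liver, 96.7 and 96.5 in kidney, 90.03 and 92.6 in lung and 74.1 and 90.8 in brown adipose, and at 5.40 in fed spleen. It was not listed in muscle, white adipose, heart or fasting spleen. Liver lay above kidney by percentile. By signal liver lay below kidney in the fed state, and in the fasting state the kidney value lay within the counting interval of liver. The summit held 78 tags (61.7 to 97.3) in fed and 189 (163 to 218) in fasting liver, against 245 and 246 in kidney, and the signal over background was 20.8 (16.5 to 25.9) and 49.7 (42.9 to 57.3) in liver against 43.4 (38.1 to 49.1) and 43.8 in kidney. Its signal ratio in liver, 2.39, lay at percentile 86.5 of comparable liver regions. Over the 8 tissues the percentile was higher in fasting by 1.77 points (sign-flip test as above, exact permutation p = 0.625, adjusted value 1 over all regions). As muscle, white adipose and heart were tied without a peak, this test could not fall under 0.05. The 150 bases around the summit are given, in which no match to the 3 motifs was found.
Region beyond Gc, chr5:89277717-89277866: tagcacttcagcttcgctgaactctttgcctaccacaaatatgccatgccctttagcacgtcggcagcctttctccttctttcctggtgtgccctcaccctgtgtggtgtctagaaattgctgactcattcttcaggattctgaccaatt

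Other strong regions of the Gc window were shared with kidney. Regions 239.4 kb and 234.6 kb from the Gc start, in introns of the bicarbonate transporter gene Slc4a4, stood at 92.3 and 96.4 and at 95.5 and 92.1 in liver and at 87.8 and 87.4 and 72.8 and 85.3 in kidney. A region 42.4 kb before the Gc start stood at 95.7 and 89.5 in liver and was also listed in kidney, lung, white adipose and fasting brown adipose. Inside Gc, a region 9.7 kb after the start stood at 92.0 and 91.9 in liver and at 56.4 in fasting kidney alone. The Npffr2 promoter, in the same window, had both liver values above the other 14, at 94.4 and 87.3, with 79.5 and 82.7 in kidney.

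**Figure D4:**
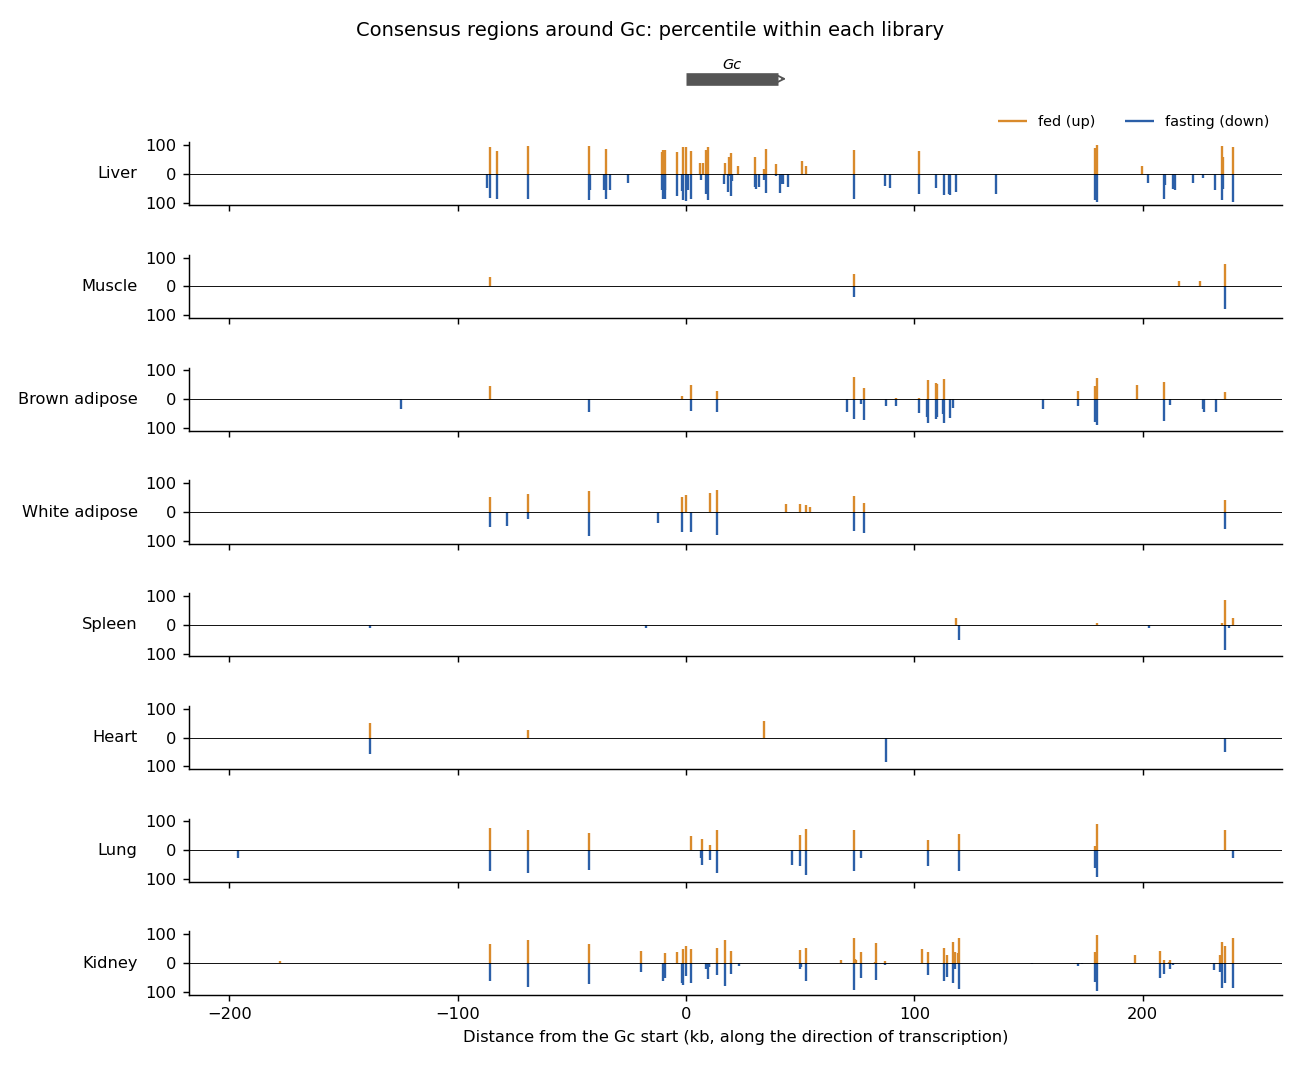
Merged regions of the Gc window by the distance of their summit from the Gc start in kb (horizontal axis, along the direction of transcription), with 1 row per tissue and the percentile within each list drawn upwards in orange for fed and downwards in blue for fasting. The region at 180.1 kb is at 99.1 and 99.5 in liver and also at 96.7 and 96.5 in kidney.

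Within liver, more regions of the Gc window rose than fell from fed to fasting. Of its 67 liver regions, 36 (53.7%) rose and 13 (19.4%) fell by 10 points or more, beside 31.5% and 45.2% over the genome. Regions unlisted in a state were again counted as 0. As 26 regions of the window were in both liver sets, many of these differences were between a listed and an unlisted state. The median difference was 24.5 points, which is also the value of a fasting peak of 12 tags without a fed peak. The largest rise was 209.1 kb from the Gc start, from no listed peak to 86.8 with 41 tags, and the largest fall was in a Gc intron 18.6 kb after the start, from 57.2 to 6.51. This is a comparison of a single fed with a single fasting library, and no test of the difference between the windows was made. Among regions of mean percentile 80 or more in both liver sets, the median signal ratio was 2.07 in the Gc window (16 regions, 10 above the genome median of 1.72) and 1.53 in the cluster window (29 regions, 12 above it). Across tissues 3 of the 57 Gc regions in at least 2 sets differed in 6 tissues or more. Of these 3, 1 passed an unadjusted exact sign-flip permutation p under 0.05 (p = 0.03125, adjusted value 1). Over the genome 7.98% of 69550 such regions passed, and 3 regions are too few to set a share beside it. The Gc region that passed lay in an intron of Npffr2, chr5:89543558-89543797, and was lower in fasting by a mean of 11.7 points.

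**Figure D5:**
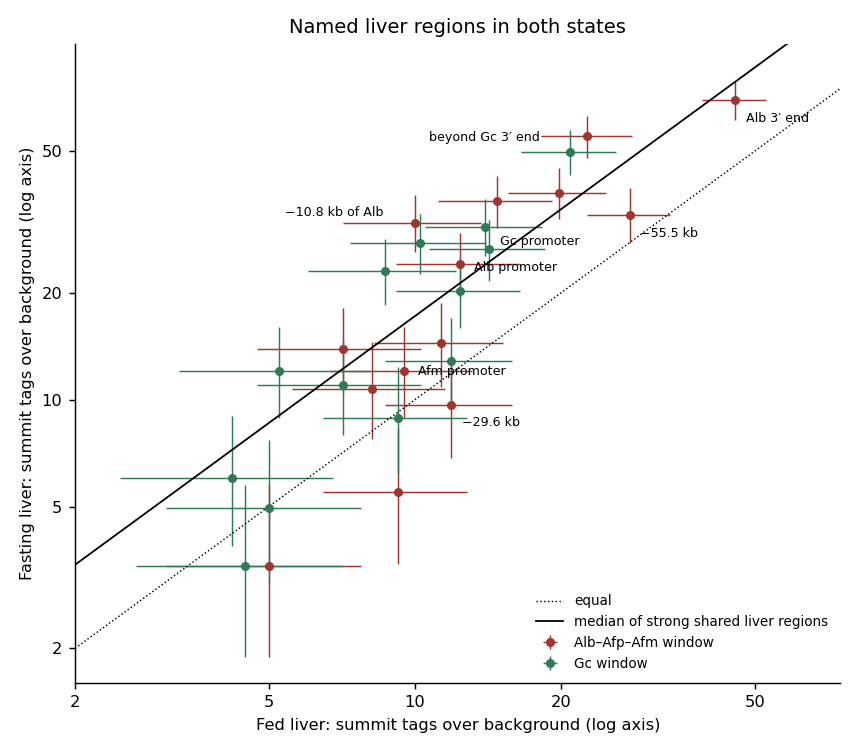
Signal of the named regions of both windows in fed (horizontal axis) and fasting liver (vertical axis), as summit tags over background tags with 1 added to both, on log axes, with exact Poisson 95% bars for counting error, a dotted line of equal signal and a solid line at the genome-wide median ratio of 1.72. The region 10.8 kb before Alb lies above the solid line with a ratio of 3.14, and the region 29.6 kb before Alb lies below the dotted line with 0.818.

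The 20 other plasma protein genes of the liver that were listed for comparison had a median liver promoter percentile of 96.0, from 86.0 for Fgb, a fibrinogen chain, to 99.4 for Hpx, the heme carrier hemopexin. Of them, 13 had both liver values highest, beside 7.01% of all promoters. Haptoglobin, Hp, which binds free hemoglobin, rose by 11.5 points from fed to fasting liver, and 0 of the 20 fell by 10 or more, beside 9.64% rising and 13.5% falling over all promoters with a liver peak. The 8 genes of hepatocyte factors had a median of 96.1, from 91.1 for Foxa1 to 99.2 for Hnf4a, and 3 of them, Hnf4a, Foxa1 and Foxa2, had both liver values highest. Cebpb rose by 10.4 points in liver. With mean liver values of 86.1 and 85.1, Alb lay beside the lowest plasma protein promoter of that list and Afm below it, while Gc at 93.6 lay within its range. None of the 20 and none of the 8 passed an unadjusted exact sign-flip permutation p under 0.05 across tissues, where 2.43% of all promoters did so in the higher and 2.26% in the lower direction. Passing needs a difference in at least 6 tissues, which some of the 20 could not have. Fgb and Fgg, for example, were listed in 4 libraries. Of the 20, 6 had a peak in all 16 libraries, beside 13446 of 18073 promoters with a liver peak, so these shares are not like for like.

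The promoters most like each member over the 16 libraries were found by Euclidean distance between percentiles. St8sia3, a sialyltransferase gene, was nearest to Alb at 6.94, with 85.6 and 84.6 in liver and 43.3 in fasting kidney, and Cyp2d40 came next at 41.4. Rdh16f2, a retinol dehydrogenase family gene, was nearest to Afm at 11.2. Afp was nearest to Ermn at 45.9 and Gc to Gm4952 at 64.4, so that Afp and Gc had no promoter as close as Alb and Afm did. Libraries that list neither promoter add nothing to a distance. Alb and Afm were listed in 3 and 5 libraries and Afp and Gc in 14 and 9, so the distances are not like for like. Around the summits of the 30 named regions of both windows, within 300 bp, an HNF4 match was found in 2, a C/EBP match in 5 and a FOXA match in 11. The C/EBP and FOXA matches overlapped in the region 35.6 kb before Alb. Over all regions of the fed liver set these shares were 6.65%, 12.7% and 24.3%, and over the fasting set 7.87%, 14.4% and 24.95%.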

How the data were processed

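The data were ATAC-seq peak lists of 8 tissues of fed and fasting mice, 1 pooled library each. According to the labels and the study's methods, the authors aligned trimmed reads to GRCm38 with Bowtie2, dropped mitochondrial and duplicate reads, corrected read ends for the Tn5 offset, called peaks per library with MACS2 at p under 0.01, kept the strongest rows and removed blacklisted ones. The deposited fold enrichment is a ratio of summit tags plus 1 to expected tags plus 1. Deposited beside it are the −log10 p and −log10 q values of the authors' Poisson test. None is scaled between libraries. Reads were not used here.

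Rows of equal coordinates were merged into 1 region with the lowest p. Regions were ranked by p within a list. Sets held regions with q under 0.01, the limit in the study's methods, and the 16 sets were merged into consensus regions. In libraries where every row passed that limit, the length of the list ended the set. Tags were solved from fold and p, and gave whole numbers within 0.001 in 98.3% to 100.0% of rows. Depth itself is not stated, but the background is proportional to it. A promoter peak had its summit within 3 kb of a GENCODE vM21 start (the study used a later release). States were compared by exact sign-flip permutation tests over 8 tissues, run for all promoters and consensus regions and adjusted by Benjamini-Hochberg. A liver change was called at 10 points. Promoter sequences and motif backgrounds came from RefSeq on GRCm38.

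The members, gene lists, motifs and regions were chosen with earlier results of these data known. The text names the 4 members, genes with a start in the windows, the highest, lowest and most changed genes of both lists, member promoter regions, the 5 strongest liver regions and the 5 strongest liver-only regions of a window, the largest rise and fall, the region in an interval the study names, and the promoters most like a member. Other regions named were chosen after their values were seen. A gene and a motif of the lists fixed for this work are not reported here. The tools were bedtools 2.31.1, matplotlib 3.10.9, pandas 2.3.3, scipy 1.17.1, numpy 2.4.6 and Python 3.11.15. The sign-flip test and the solving of tags were tested on simulated data, and the other steps were not. Alternatives covered the q limit, ranking by fold, rows in place of regions, ranks within the set, tags over background, promoter and window widths, coding starts, overlap and leaving out each tissue.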

Additional observations from a re-analysis of the deposited data

How the results depend on the processing

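Of the alternatives tried, 82 values kept their direction and side of the threshold or stayed within 1.5 times the main count, 5 moved and 4 changed sign. With q under 1e-06 the mean number of liver regions fell from 99.0 to 52.0 in the cluster window and from 47.0 to 25.5 in the Gc window, and with that limit on the liver sets the regions listed in liver alone fell from 21 to 6 and from 7 to 3. With rows in place of regions the cluster window held 153.5. The stricter limit keeps fewer regions and rows repeat a region, so both follow from construction. Ranked by fold, the region beyond Gc differed by -1.10 points in place of 1.77. Leaving out each tissue in turn gave differences of 0.170 to 7.25 points for Alb, -5.46 to -1.47 for Afp, -0.43 to 6.62 for Afm, -6.53 to 2.77 for Gc and -0.36 to 2.79 for the region beyond Gc. Among settings that kept the sign, the Afp difference reached -12.7 with protein-coding starts alone and the Gc difference -8.82 with a 1000 bp window. The sign changed for Afm without spleen, for Gc without lung and for the region beyond Gc without brown adipose. No difference passed an exact permutation p of 0.05 in the main test or any alternative. For Alb, Afm and Gc ties put that limit out of reach, with smallest possible exact permutation p of 0.5, 0.25 and 0.0625. The region beyond Gc was tied in muscle, white adipose and heart, so it could not reach the limit either. Alb and Gc were the 2 members highest in liver under 6 of 6 alternatives. No paired analysis was possible because each tissue and state has 1 library, beyond the pairing of states by tissue in the tests themselves. Depth limits weak peaks most in liver, which had the lowest background, and a peak not listed there may lie under the list's limit.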
